A study of Homo sapiens with 18 samples.

Results

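NRF2, encoded by NFE2L2, and 8 genes known as its targets were followed in SW620 cells, a human colon cancer line, after heat shock and after knock-down of the mitochondrial protease Lonp1. The 9 genes were taken by symbol, as known members of the pathway: NFE2L2, HMOX1, NQO1, GCLM, GCLC, SLC7A11, SRXN1, TXNRD1 and OSGIN1. They are 9 of the 26485 gene symbols counted, and all 9 were among the 12832 symbols with a CPM (a library's counts scaled to a common total) above 1 in 3 libraries or more, which were the ones tested. RNAseq was made from 18 libraries in 6 groups of 3, described in the study's methods as independent biological replicates. Cells had received a scrambled siRNA (scramble) or siRNA against Lonp1 (siLonp1). Ctrl cells stayed at 37 °C, HS cells spent 1 h at 42 °C, and HS+REC cells had the same 1 h of heat followed by 1 h of recovery at 37 °C. No group was left untransfected, all cells came from the same line, and which siRNA sequence was used for RNAseq is not given in the sources used here. Heat shock tests how the cells respond to misfolded protein, and siLonp1 tests whether that response differs when Lonp1 is low.

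NRF2 is a transcription factor that KEAP1 holds in the cytoplasm and passes to the proteasome. When reactive oxygen species or electrophiles modify KEAP1, NRF2 escapes, enters the nucleus, pairs with a small MAF protein and binds antioxidant response elements, which BACH1 can occupy as a repressor. Much of NRF2 control therefore lies in protein stability, which counts of mRNA do not measure. Its targets make and recycle glutathione (GCLC, GCLM, SLC7A11), keep thioredoxin and peroxiredoxins reduced (TXNRD1, SRXN1), reduce quinones (NQO1) and degrade haem (HMOX1).

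The element that NRF2 binds was looked for in promoter windows from RefSeq (GRCh38.p14), which run from 250 bases before to 50 bases after a start site. The table has 9 windows for 7 of the 9 genes, and HMOX1 and SLC7A11 have no entry. The core of the element, searched as TGACNNNGC on both strands, was in 13.3% of all 35116 windows and in 3 of the 9 windows here, those of GCLM and TXNRD1. The AP-1 site, searched as TGANTCA, was in 7.71% of all windows and in that of OSGIN1, where it did not overlap the element core. The heat shock element units GAANNTTC (6.77% of all windows) and TTCNNGAA (7.74%) and the C/EBP-ATF composite TGATGNAA (3.62%), searched on both strands, had no match in the 9 windows. The stretches around matches upstream of a start site are shown 5′ to 3′ on the strand of the gene, with the matched letters in capitals. They hold letters of the kind that NRF2 or AP-1 is known to bind, and whether either acts through these sites was not tested. A match describes letters and not binding.
GCLM, chr1:93909436-93909484, hg38, minus strand, match from −34: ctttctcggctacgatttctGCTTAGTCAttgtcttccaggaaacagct
TXNRD1, chr12:104215660-104215708, hg38, plus strand, match from −99: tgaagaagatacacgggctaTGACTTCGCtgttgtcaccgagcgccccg
TXNRD1, chr12:104286910-104286958, hg38, plus strand, window of a second start site, match from −102: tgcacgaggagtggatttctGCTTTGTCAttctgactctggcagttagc
OSGIN1, chr16:83953123-83953169, hg38, plus strand, AP-1 match from −97: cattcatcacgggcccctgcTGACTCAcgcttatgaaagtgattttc
In GCLM and in the second TXNRD1 window the core lies on the opposite strand, so that it reads TGACTAAGC and TGACAAAGC there. The other TXNRD1 match shown reads TGACTTCGC on the strand of the gene, and a further match in that window, from −8 to 1 across the start site, is not shown.

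Libraries held between 30815860 and 47279297 counts, and over all 153 pairs of libraries the chi-square of the counts, divided by its degrees of freedom, was 3.62 or more, so that no pair agreed within sampling noise. Among the replicates of a group it was 5.45 in Ctrl scramble, 8.03 in Ctrl siLonp1, 12.99 in HS scramble and 10.77 in HS siLonp1. It was highest in the HS+REC groups, at 19.97 in scramble and 22.79 in siLonp1. LONP1, the targeted gene, fell to 9.26% of scramble under Ctrl, 5.48% under HS and 12.4% under HS+REC, so the label of each siLonp1 group matched its transcript, and the depth of the knock-down was not equal in the 3 conditions. All 6 colon epithelial markers were above 1 CPM, whereas the 3 endothelial and 3 erythroid markers were below it. Of the fibroblast and leukocyte markers COL1A1, PDGFRB and LYZ passed 1 CPM, with summed levels of 8.98 to 37.1 and 2.64 to 9.64 CPM per library, and COL3A1 was at 0.

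Levels of the 9 genes spanned 2 orders of magnitude per transcript length. In Ctrl scramble NQO1 led at 210.0 ± 1.25 CPM per kilobase (mean ± SD, n = 3 for this and all group means), followed by TXNRD1 at 60.7 ± 1.37, SRXN1 at 38.9 ± 2.44 and NFE2L2 at 36.4 ± 1.66. GCLC stood at 22.3 ± 0.393 CPM per kilobase, SLC7A11 at 7.80 ± 0.349, GCLM at 5.99 ± 0.451, OSGIN1 at 4.63 ± 0.319 and HMOX1 at 1.85 ± 0.0735. The libraries of SRXN1 and NFE2L2 overlapped on this scale, and those of the other neighbours in the order did not. After HS, NFE2L2 stood above SRXN1 in both arms. HMOX1, last in Ctrl, was seventh in HS siLonp1 and in both HS+REC groups, where its libraries overlapped those of SLC7A11. The order uses the canonical transcript of each gene in GENCODE v44, and other transcripts would move it.

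**Figure D1:**
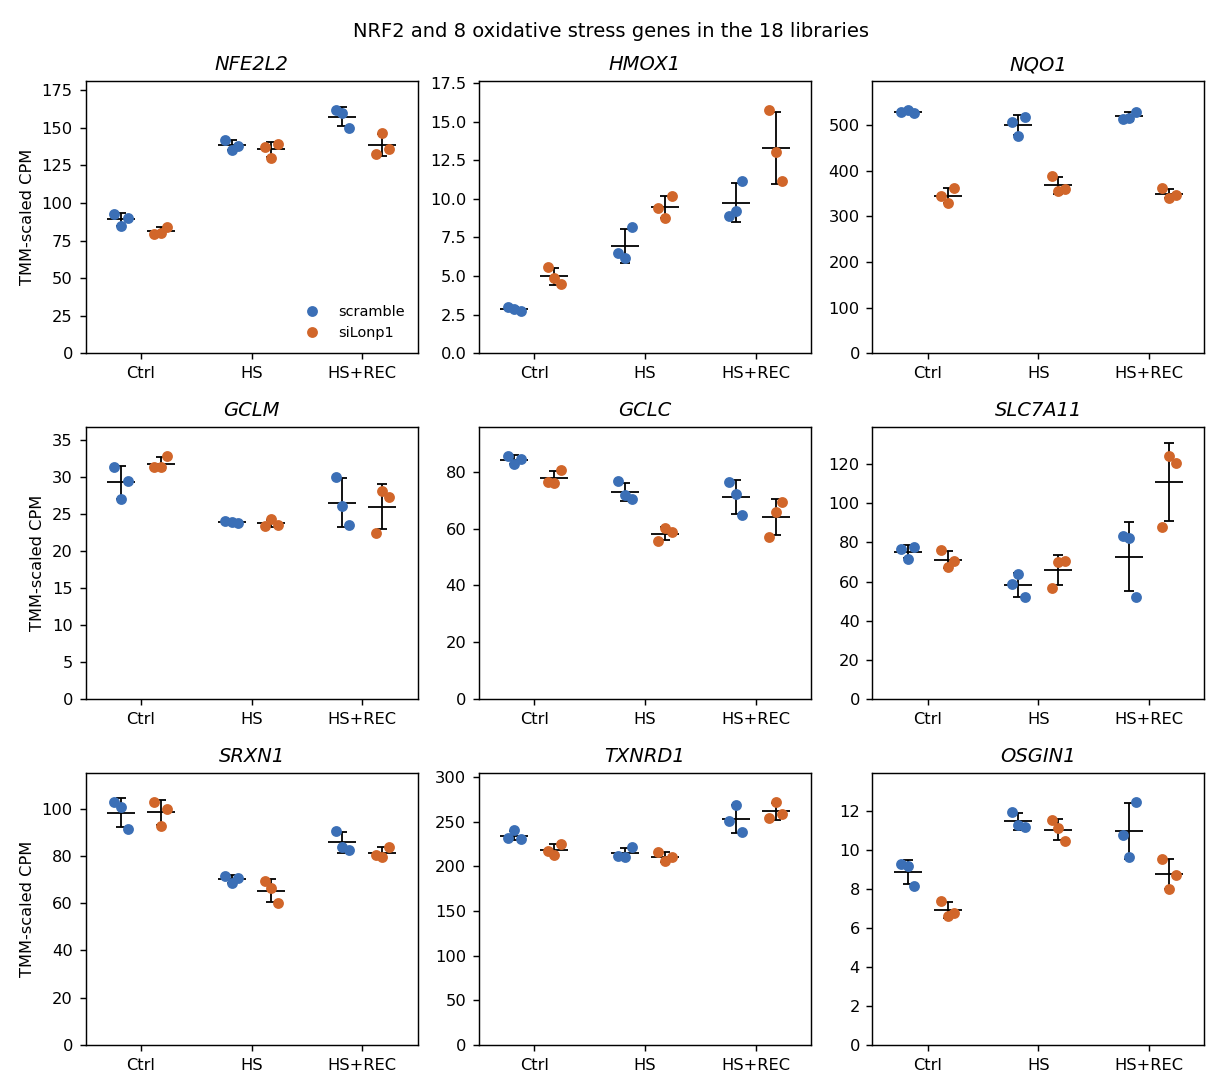
TMM-scaled CPM (y axis, from 0) of the 9 genes in Ctrl, HS and HS+REC, with 1 point for each of the 18 libraries and black bars for the mean ± SD of 3 libraries. NQO1 sits below scramble in all 9 siLonp1 libraries, between 329 and 390 CPM, and HMOX1 climbs from a mean of 2.88 CPM in Ctrl scramble to a mean of 13.3 CPM in HS+REC siLonp1.

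Heat shock of 1 h raised NFE2L2, HMOX1 and OSGIN1 and lowered GCLM, GCLC and SRXN1 in both siRNA arms, so the targets did not move as a block. The words rose and fell are kept for genes whose FDR, by edgeR's quasi-likelihood test and the Benjamini-Hochberg adjustment over all 12832 genes, did not exceed 0.05. In bulk RNA a change in the share of cells and a change in RNA per cell cannot be told apart. In scramble 3 of the 9 genes rose and 4 fell, beside 36.0% of all genes called in either direction, and in siLonp1 3 rose and 3 fell, beside 42.2%. The median log2 fold change of the 9 genes was −0.13 in scramble and −0.05 in siLonp1, against −0.01 and 0.00039 over all genes. Only HMOX1, in scramble, passed the more than 2-fold change that the study required. Without Ctrl scramble replicate 1, the scramble count was 4 in place of 7, as GCLM, GCLC and SLC7A11 lost their calls.

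NFE2L2 (chr2:177218667-177392756, minus strand, hg38) was at 92.5, 84.6 and 90.1 CPM in Ctrl scramble and at 142, 136 and 138 CPM in HS scramble. In siLonp1 it went from 79.2, 80.0 and 84.2 CPM to 137, 130.1 and 139 CPM. No HS library of either arm came near the range of its Ctrl libraries. The log2 fold change was 0.64 ± 0.06 in scramble (± SE, FDR = 4.43e-09) and 0.74 ± 0.06 in siLonp1 (FDR = 2.6e-10), a rise of 55.5% and 67.2%. Exons of HNRNPA3 and AGPS on the opposite strand overlap the annotated NFE2L2 locus, and the strand setting of the counting is not given in the sources used here.

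HMOX1 (chr22:35380361-35394214, plus strand), haem oxygenase 1, which opens the haem ring and frees iron, carbon monoxide and biliverdin, moved most. It was at 2.99, 2.88 and 2.76 CPM in Ctrl scramble (115 to 137 raw counts) and at 6.51, 6.16 and 8.19 CPM in HS scramble. Ctrl siLonp1 stood higher at 5.60, 4.87 and 4.50 CPM, and HS siLonp1 at 9.39, 8.78 and 10.2 CPM. The 4 groups did not overlap, in the order Ctrl scramble, Ctrl siLonp1, HS scramble, HS siLonp1. HS raised it by 1.26 ± 0.14 on the log2 scale in scramble (2.39-fold, FDR = 2.17e-07) and by 0.92 ± 0.13 in siLonp1 (1.90-fold, FDR = 3.99e-06).

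OSGIN1 (chr16:83931311-83966332, plus strand), an oxidative stress induced growth inhibitor, was at 9.29, 9.22 and 8.19 CPM in Ctrl scramble, against 12.0, 11.3 and 11.2 CPM in HS scramble. In siLonp1 it went from 7.38, 6.62 and 6.79 CPM to 11.6, 11.2 and 10.5 CPM. Both HS groups lay above their Ctrl groups and overlapped each other. The rise was 0.37 ± 0.09 on the log2 scale in scramble (FDR = 0.00337) and 0.67 ± 0.10 in siLonp1 (FDR = 4.56e-06). The annotated locus shares exon bases with MLYCD on the same strand, so that some of its reads can belong to that gene.

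The genes of glutathione synthesis moved the other way. GCLM (chr1:93885199-93909456, minus strand), the modifier subunit of glutamate-cysteine ligase, was at 31.4, 27.0 and 29.4 CPM in Ctrl scramble and at 24.1, 23.8 and 23.8 CPM in HS scramble. Its HS libraries in siLonp1, at 23.3, 24.3 and 23.5 CPM, were likewise under the Ctrl siLonp1 range of 31.3 to 32.8 CPM. GCLM fell by 0.29 on the log2 scale in scramble (SE 0.09, FDR = 0.00998) and by 0.42 in siLonp1 (SE 0.09, FDR = 0.000285). Without Ctrl scramble replicate 1 the scramble value was −0.24 and missed the threshold (FDR = 0.0634).

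GCLC (chr6:53497341-53616970, minus strand), the catalytic subunit of the same ligase, was at 85.5, 82.6 and 84.6 CPM in Ctrl scramble, against 76.6, 71.7 and 70.5 CPM in HS scramble. In siLonp1 its HS libraries were at 55.7, 60.1 and 58.7 CPM, below the 76.1 to 80.7 CPM of Ctrl. It fell by 0.42 on the log2 scale in siLonp1 (SE 0.07, FDR = 3.25e-05) and by 0.21 in scramble (SE 0.07, FDR = 0.0218). The scramble call was lost in 4 of 6 fits with a library left out, at −0.20 without Ctrl replicate 1 or 3 or HS replicate 2, and at −0.16 without HS replicate 3.

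SLC7A11 (chr4:138164097-138242349, minus strand) encodes the cystine carrier of system xc-, which imports the amino acid that limits glutathione synthesis, and is known as a target of ATF4 as well as of NRF2. It was at 76.7, 71.4 and 77.6 CPM in Ctrl scramble, against 58.9, 64.0 and 51.9 CPM in HS scramble, groups that did not overlap. It fell by 0.37 on the log2 scale (SE 0.14, FDR = 0.0385), a call that was lost without each library but HS replicate 2, at values between −0.40 and −0.27, and kept at −0.44 without that one. In siLonp1 the HS libraries, at 56.9, 69.9 and 70.5 CPM, overlapped the Ctrl libraries at 75.9, 67.4 and 70.3 CPM, and the log2 fold change was −0.11 ± 0.14 (FDR = 0.534). SLC7A11-AS1 lies antisense over its exons.

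Of the genes that keep protein thiols reduced, SRXN1 fell with heat. SRXN1 (chr20:646615-653200, minus strand), sulfiredoxin, repairs over-oxidised peroxiredoxins. It was at 103, 100.7 and 91.4 CPM in Ctrl scramble, against 71.5, 68.4 and 70.7 CPM in HS scramble, and at 103, 92.8 and 99.9 CPM in Ctrl siLonp1 and 69.5, 66.4 and 60.3 CPM in HS siLonp1. HS and Ctrl were far apart in both arms. It fell by 0.49 on the log2 scale in scramble (SE 0.06, FDR = 1.83e-06) and by 0.59 in siLonp1 (SE 0.06, FDR = 6.98e-08). Another annotated coding gene overlaps its exons on the same strand.

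TXNRD1 (chr12:104215779-104350307, plus strand), cytosolic thioredoxin reductase, was at 232, 240.5 and 231 CPM in Ctrl scramble, against 212, 211 and 222 CPM in HS scramble. The difference of −0.13 ± 0.05 did not pass the test (FDR = 0.0741), nor did that of −0.05 ± 0.05 in siLonp1 (FDR = 0.447). DESeq2, by contrast, called TXNRD1 and not SLC7A11 for HS in scramble.

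NQO1 (chr16:69706996-69726668, minus strand), which reduces quinones by a pair of electrons and is often used as a readout of NRF2, did not pass the test for heat in any of the comparisons. In scramble it was at 528, 533 and 527 CPM under Ctrl, 508, 477 and 518 CPM under HS and 513, 516 and 529.8 CPM under HS+REC. The log2 fold changes for HS were −0.08 ± 0.05 in scramble (FDR = 0.266) and 0.09 ± 0.05 in siLonp1 (FDR = 0.18), and those for HS+REC were −0.03 ± 0.05 (FDR = 0.716) and 0.02 ± 0.05 (FDR = 0.8).

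After 1 h of recovery, NFE2L2 and HMOX1 stood further above Ctrl in scramble, SRXN1 and TXNRD1 stood above their HS levels in both arms, and SLC7A11 was higher in siLonp1. Against Ctrl, 3 of the 9 genes were higher and 2 lower in HS+REC scramble, beside 42.3% of all genes called, and 5 were higher and 3 lower in HS+REC siLonp1, beside 51.2%. Against HS, 4 were higher and 0 lower in scramble, beside 26.8% of all genes, and 4 higher and 1 lower in siLonp1, beside 31.9%. With library sizes alone in place of TMM factors the split for HS+REC against Ctrl in scramble was 2 higher and 3 lower, while the share of higher genes among all calls went from 51.5% to 34.9%. HS and HS+REC were set against the same Ctrl libraries, and both HS+REC comparisons share the HS+REC libraries. The plot of heat and recovery effects shows each value beside the other arm.

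**Figure D2:**
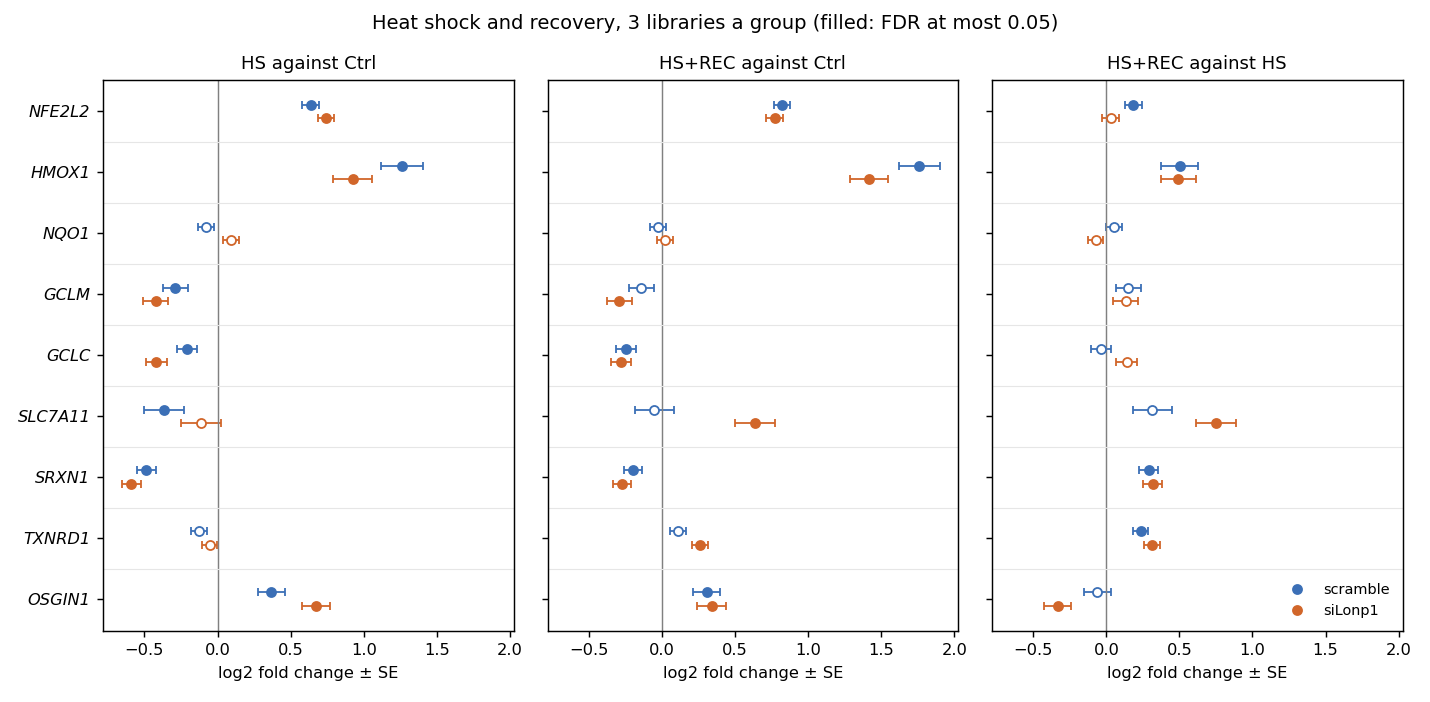
Log2 fold changes (x axis, ± SE) of the 9 genes for HS against Ctrl, HS+REC against Ctrl and HS+REC against HS, with scramble in blue and siLonp1 in orange, 3 libraries a group, and filled points for an FDR of at most 0.05. HMOX1 reaches 1.76 in HS+REC scramble, SRXN1 lies left of 0 in the first 2 panels and right of 0 in the last, and the arms differ most for SLC7A11 in HS+REC against Ctrl, at −0.05 and 0.64.

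HMOX1 reached 8.88, 9.19 and 11.2 CPM in HS+REC scramble and 15.7, 13.0 and 11.1 CPM in HS+REC siLonp1. All 6 libraries lay above every HS library of their arm. Against Ctrl it rose by 1.76 ± 0.14 on the log2 scale in scramble (3.39-fold, FDR = 3.36e-10) and by 1.42 ± 0.13 in siLonp1 (2.67-fold, FDR = 2.76e-09). Against HS the rise was 0.50 ± 0.13 in scramble (FDR = 0.00396) and 0.49 ± 0.12 in siLonp1 (FDR = 0.00255).

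NFE2L2 was at 162, 160.1 and 150.2 CPM in HS+REC scramble and at 133, 147 and 136 CPM in HS+REC siLonp1. Against Ctrl it rose by 0.82 ± 0.06 on the log2 scale in scramble (FDR = 3.65e-11) and by 0.77 ± 0.06 in siLonp1 (FDR = 8.63e-11). Against HS it rose in scramble by 0.18 ± 0.06 (FDR = 0.0166), and the siLonp1 value was 0.03 ± 0.06 (FDR = 0.741). The scramble call against HS was lost without HS replicate 2 (0.17, FDR = 0.0695), HS+REC replicate 1 (0.16, FDR = 0.0636) or HS+REC replicate 2 (0.17, FDR = 0.0531).

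SLC7A11 was at 83.4, 82.2 and 52.3 CPM in HS+REC scramble and at 87.9, 124 and 120.3 CPM in HS+REC siLonp1. The siLonp1 libraries were all above the scramble libraries, and replicate 3 of HS+REC scramble was far under the other 2. In siLonp1 the gene rose by 0.64 ± 0.14 on the log2 scale against Ctrl (FDR = 0.000374) and by 0.75 ± 0.14 against HS (FDR = 0.000119). In scramble the values were −0.05 ± 0.14 against Ctrl (FDR = 0.794) and 0.32 ± 0.14 against HS (FDR = 0.0923). Without HS+REC scramble replicate 3 these were 0.14 (FDR = 0.342) and 0.51 (FDR = 0.00139), and without HS+REC scramble replicate 1 they were −0.16 (FDR = 0.4) and 0.20 (FDR = 0.335).

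SRXN1 was at 90.8, 83.7 and 82.8 CPM in HS+REC scramble and 80.6, 79.7 and 84.0 CPM in HS+REC siLonp1, between its HS and Ctrl libraries in both arms. Against HS it rose by 0.29 ± 0.06 on the log2 scale in scramble (FDR = 0.00129) and by 0.32 ± 0.06 in siLonp1 (FDR = 0.000427). Against Ctrl it was still lower, with log2 fold changes of −0.20 ± 0.06 (FDR = 0.0143) and −0.27 ± 0.06 (FDR = 0.000917). The scramble call against Ctrl was lost without Ctrl replicate 1 (−0.16, FDR = 0.0786) or 2 (−0.18, FDR = 0.0567), or HS+REC replicate 2 (−0.18, FDR = 0.0506) or 3 (−0.17, FDR = 0.0537).

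TXNRD1 was at 251, 269 and 238 CPM in HS+REC scramble and at 255, 272 and 258 CPM in HS+REC siLonp1, above all HS libraries of its arm. Against HS it rose by 0.23 ± 0.05 on the log2 scale in scramble (FDR = 0.00183) and by 0.31 ± 0.05 in siLonp1 (FDR = 6.63e-05). Against Ctrl it rose in siLonp1 by 0.26 ± 0.05 (FDR = 0.000299), and the scramble value was 0.11 ± 0.05 (FDR = 0.109), which ran from 0.06 without HS+REC replicate 2 (FDR = 0.412) to 0.15 without HS+REC replicate 3 (FDR = 0.0404).

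GCLM was at 30.0, 26.0 and 23.5 CPM in HS+REC scramble, over the range of both Ctrl and HS, and its difference from Ctrl was −0.14 ± 0.08 (FDR = 0.19), and ran from −0.24 without HS+REC replicate 1 (FDR = 0.0309) to −0.06 without HS+REC replicate 3 (FDR = 0.608). In siLonp1 it was at 22.5, 28.1 and 27.3 CPM and fell by 0.29 against Ctrl (SE 0.08, FDR = 0.00601), a call lost without HS+REC replicate 1 (−0.20, FDR = 0.0536). GCLC stayed under Ctrl, at 76.2, 72.3 and 64.6 CPM in scramble and 57.0, 65.7 and 69.4 CPM in siLonp1. Its log2 fold changes against Ctrl were −0.25 ± 0.07 (FDR = 0.00593) and −0.28 ± 0.07 (FDR = 0.0017). Against HS, GCLC in siLonp1 had a value of 0.14 ± 0.07 (FDR = 0.146), which ran from 0.08 without HS+REC replicate 3 (FDR = 0.497) to 0.20 without HS+REC replicate 1 (FDR = 0.0245).

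OSGIN1 was at 10.8, 9.66 and 12.5 CPM in HS+REC scramble and at 9.57, 8.01 and 8.74 CPM in HS+REC siLonp1. It was above Ctrl by 0.31 ± 0.09 in scramble (FDR = 0.0105) and 0.34 ± 0.10 in siLonp1 (FDR = 0.00579). The scramble call was lost without Ctrl replicate 3 (0.25, FDR = 0.0646) or HS+REC replicate 3 (0.20, FDR = 0.0956). Against HS it fell in siLonp1 by 0.33 on the log2 scale (SE 0.09, FDR = 0.00836), a call lost without HS+REC replicate 2 (−0.27, FDR = 0.0501), and the scramble value was −0.06 ± 0.09 (FDR = 0.671).

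Knock-down of Lonp1 lowered NQO1 and raised HMOX1 in Ctrl, HS and HS+REC alike, whereas GCLM, SRXN1 and TXNRD1 passed the test in none of the 3 conditions. For TXNRD1 in Ctrl this held with TMM factors and all 18 libraries, but not in other fits given below. In Ctrl 1 of the 9 genes was higher and 2 lower, beside 49.2% of all genes called, in HS 1 was higher and 2 lower, beside 54.8%, and in HS+REC 2 were higher and 3 lower, beside 54.1%. With TMM factors and all 18 libraries, the share of members called in Ctrl and in HS was thus below that of all genes. In HS+REC, 5 of 9 was near the share of all genes. No member passed 2-fold. The median over the members was −0.10, −0.03 and −0.07 on the log2 scale, against 0.0092, 0.0011 and −0.0028 over all genes. With library sizes alone the members in Ctrl were 1 higher and 5 lower, but that scaling moved the median of all genes by −0.07 on the log2 scale and took the share of higher genes among all calls from 53.4% to 39.2%.

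NQO1 was at 345, 329 and 363 CPM in Ctrl siLonp1, against 527 to 533 CPM in Ctrl scramble. In HS siLonp1 it was at 389.9, 355 and 361 CPM, and in HS+REC siLonp1 at 361, 341 and 348 CPM, always under each scramble library. The mean was 65.3% of scramble under Ctrl, 73.5% under HS and 67.4% under HS+REC. NQO1 fell by 0.62 on the log2 scale in Ctrl (SE 0.05, FDR = 3.37e-09), by 0.44 in HS (SE 0.05, FDR = 4.18e-07) and by 0.57 in HS+REC (SE 0.05, FDR = 9.54e-09). It has the highest level of the 9 genes, with 13304 to 25334 raw counts per library, so that counting error adds little.

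HMOX1 was higher in siLonp1 by 0.79 ± 0.15 in Ctrl (1.73-fold, FDR = 0.000127), by 0.46 ± 0.13 in HS (FDR = 0.00425) and by 0.45 ± 0.12 in HS+REC (FDR = 0.00304). Its libraries were apart in Ctrl and HS. In HS+REC the lowest siLonp1 library, at 11.1 CPM, met the highest scramble library, at 11.2 CPM.

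OSGIN1 fell with siLonp1 by 0.36 on the log2 scale in Ctrl (SE 0.10, FDR = 0.00397) and by 0.33 in HS+REC (SE 0.09, FDR = 0.00563), and its value in HS was −0.06 ± 0.09 (FDR = 0.635). The call in HS+REC was lost without HS+REC scramble replicate 3 (−0.22, FDR = 0.0562). GCLC fell by 0.33 in HS (SE 0.07, FDR = 0.000427), with all 3 siLonp1 libraries below scramble. Its values were −0.12 ± 0.07 in Ctrl (FDR = 0.174) and −0.15 ± 0.07 in HS+REC (FDR = 0.0722), the latter at −0.22 without HS+REC scramble replicate 3 (FDR = 0.0149), −0.21 without HS+REC siLonp1 replicate 3 (FDR = 0.0227), −0.10 without HS+REC scramble replicate 1 (FDR = 0.303) and −0.08 without HS+REC siLonp1 replicate 1 (FDR = 0.349).

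NFE2L2 itself fell by 0.18 with siLonp1 in HS+REC (SE 0.06, FDR = 0.00845). Its value was −0.03 ± 0.06 in HS (FDR = 0.677) and −0.14 ± 0.06 in Ctrl (FDR = 0.0545), where the libraries were apart and the test was passed without Ctrl scramble replicate 2 (−0.17, FDR = 0.0347) or Ctrl siLonp1 replicate 3 (−0.16, FDR = 0.0466), whereas without Ctrl scramble replicate 1 the value was −0.11 (FDR = 0.192). DESeq2 called NFE2L2 in Ctrl as well (−0.15, FDR = 0.0261), as did edgeR with RLE factors (−0.15, FDR = 0.0376). SLC7A11 was higher in HS+REC by 0.61 ± 0.14 (1.53-fold, FDR = 0.000601) and by 0.42 when HS+REC scramble replicate 3 was left out, with values of −0.08 ± 0.14 in Ctrl (FDR = 0.657) and 0.17 ± 0.14 in HS (FDR = 0.292). GCLM, SRXN1 and TXNRD1 had values between −0.10 and 0.12 in the 3 conditions.

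**Figure D3:**
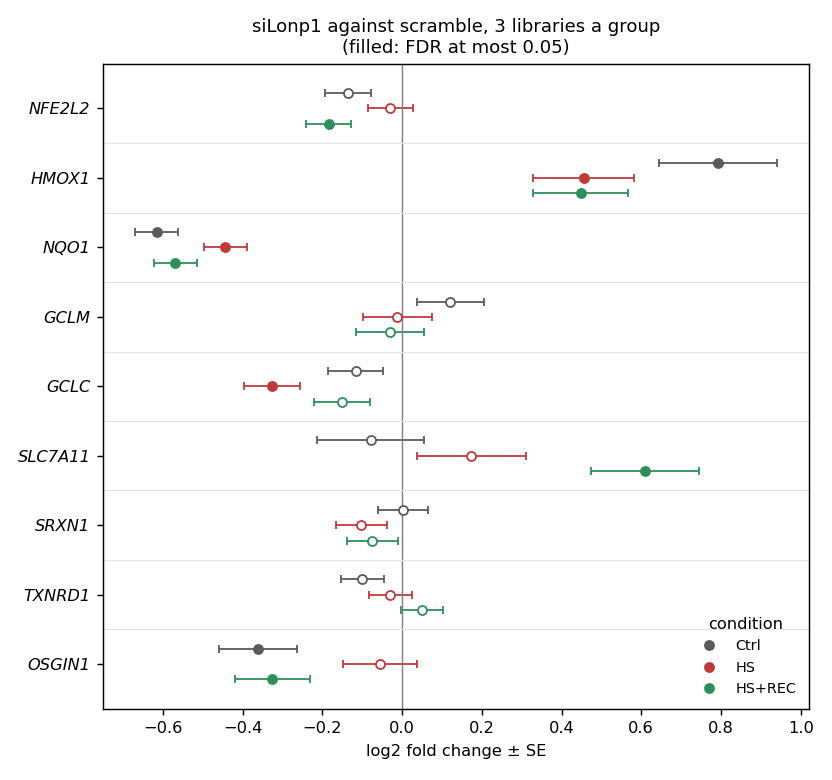
Log2 fold changes (x axis, ± SE) of siLonp1 against scramble for the 9 genes in Ctrl (grey), HS (red) and HS+REC (green), 3 libraries a group, with filled points for an FDR of at most 0.05. NQO1 lies at −0.62, −0.44 and −0.57 and HMOX1 at 0.79, 0.46 and 0.45.

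Whether heat acted differently on these genes when Lonp1 was low was tested by an interaction term for each of HS and HS+REC. In edgeR's quasi-likelihood test 0 of the 9 genes passed either interaction, beside 1.87% and 1.58% of all genes, and DESeq2 called 0 in both as well. At an unadjusted p under 0.05, 3 genes (NQO1, OSGIN1 and GCLC) passed for HS and 1 (SLC7A11) for HS+REC. The interaction of SLC7A11 with HS+REC was 0.69 ± 0.19 on the log2 scale (FDR = 0.0692). It passed without HS+REC scramble replicate 2 (0.79, FDR = 0.0451) or HS+REC siLonp1 replicate 1 (0.82, FDR = 0.0208), and was 0.50 without HS+REC scramble replicate 3 (FDR = 0.0836). For HMOX1 the values were −0.34 ± 0.20 for HS (FDR = 0.438) and −0.34 ± 0.19 for HS+REC (FDR = 0.453), and for NQO1 0.17 ± 0.08 (FDR = 0.278) and 0.05 ± 0.08 (FDR = 0.853).

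The regulators and partners of NRF2 moved in both directions. This list and those after it are described by counts and medians, with no test of a list as a whole, and the share of all genes called stands beside each count. Of 12 listed regulators 11 were tested, and in HS 3 rose and 6 fell in scramble, beside 36.0% of all genes, and 2 rose and 4 fell in siLonp1, beside 42.2%. MAFF, a small MAF protein that pairs with NRF2 or with BACH1, rose from 19.8 ± 0.416 to 44.3 ± 2.89 CPM in scramble (1.16 ± 0.11, FDR = 1.51e-08) and from 39.1 ± 0.525 to 86.0 ± 2.45 CPM in siLonp1 (1.14 ± 0.11, FDR = 7.79e-09). KEAP1 fell by 0.28 on the log2 scale in scramble (SE 0.08, FDR = 0.00856) and by 0.53 in siLonp1 (SE 0.08, FDR = 8.77e-06). NFE2L3, a factor of the same family, fell by 0.54 and 0.90, and BACH1 rose by 0.52 ± 0.07 in scramble.

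In HS+REC 1 of the 11 rose and 5 fell in each arm, beside 42.3% of all genes in scramble and 51.2% in siLonp1, MAFF being the 1 that rose, by 1.09 ± 0.11 and 1.27 ± 0.11, and KEAP1 fell by 0.47 and 0.57. With siLonp1, 6 were higher and 1 lower in Ctrl, 5 and 2 in HS, and 6 and 2 in HS+REC, beside 49.2%, 54.8% and 54.1% of all genes. MAFF was higher by 0.98 ± 0.11, 0.96 ± 0.11 and 1.17 ± 0.11 in the 3 conditions, and BTRC, a subunit of a ubiquitin ligase that also marks NRF2 for degradation, by 0.69 ± 0.08, 0.73 ± 0.09 and 0.74 ± 0.09. KEAP1 was lower in HS (−0.28 ± 0.08, FDR = 0.00513) and did not pass in Ctrl (−0.03 ± 0.08, FDR = 0.805) or HS+REC (−0.13 ± 0.08, FDR = 0.196). NFE2L3 was the 1 gene of the list past the threshold for an interaction, with HS (−0.37 ± 0.10, FDR = 0.0491), and it was higher with siLonp1 by 0.41 ± 0.07 in Ctrl (FDR = 2.52e-05).

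In a list of aldo-keto and quinone reductases and other detoxification enzymes, NQO1 not included, ALDH3A1 and AKR1C3 fell with siLonp1 in all 3 conditions. Of 10 tested genes of 12 listed, 7 fell and 0 rose in Ctrl, beside 49.2% of all genes called, 6 fell and 1 rose in HS, beside 54.8%, and 5 fell and 0 rose in HS+REC, beside 54.1%, with list medians of −0.28, −0.29 and −0.33 against 0.0092, 0.0011 and −0.0028 over all genes. ALDH3A1, an aldehyde dehydrogenase, was at 10.8 ± 0.129 CPM in Ctrl scramble, against 5.55 ± 0.385 CPM in Ctrl siLonp1, and fell by 0.96, 0.88 and 0.94 on the log2 scale in the 3 conditions. AKR1C3, an aldo-keto reductase, fell by 0.72, 0.40 and 0.60, and CBR1, a carbonyl reductase, fell by 0.49 in Ctrl and 0.30 in HS. The AKR1C genes are near-identical, so that reads may be split among them. In HS 1 of the 10 rose and 1 fell in scramble, beside 36.0% of all genes, and 2 rose and 0 fell in siLonp1, beside 42.2%.

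Among 15 tested genes of glutathione use and turnover, CHAC1 and SLC3A2 rose with heat in both arms. In HS 2 of the 15 rose and 1 fell in scramble, beside 36.0% of all genes, and 4 rose and 1 fell in siLonp1, beside 42.2%. In HS+REC 3 rose and 0 fell in scramble, beside 42.3%, and 3 rose and 2 fell in siLonp1, beside 51.2%. CHAC1, which degrades glutathione and is known as an ATF4 target, rose from 6.33 ± 0.39 CPM in Ctrl scramble to 59.6 ± 4.91 in HS and 138 ± 14.7 in HS+REC, by 3.24 ± 0.14 (FDR = 5.04e-15) and 4.45 ± 0.14 (FDR = 1.03e-17) on the log2 scale. Its rise with HS was larger in siLonp1, by an interaction of 1.08 ± 0.20 (FDR = 0.00497), with siLonp1 below scramble in Ctrl (−0.64 ± 0.16, FDR = 0.00254) and above it in HS (0.44 ± 0.11, FDR = 0.00226). SLC3A2, the heavy chain that pairs with SLC7A11, rose by 0.61 ± 0.07 with HS in both arms and by 1.04 ± 0.07 and 1.08 ± 0.07 with HS+REC. With siLonp1, 3 of the 15 were higher and 6 lower in Ctrl, beside 49.2% of all genes, 6 higher and 5 lower in HS, beside 54.8%, and 1 higher and 5 lower in HS+REC, beside 54.1%, with list medians of −0.08, 0.11 and 0.04. GPX2, a gut glutathione peroxidase, fell by 0.39, 0.28 and 0.42 (SE 0.08 each) in the 3 conditions.

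Of 13 genes of the thioredoxin and peroxiredoxin system, 3 rose and 0 fell with HS in each arm, beside 36.0% of all genes in scramble and 42.2% in siLonp1. They were TXNIP, which binds and inhibits thioredoxin (2.09 ± 0.07 and 1.81 ± 0.07), and the sestrins SESN2 (1.99 ± 0.11 and 2.83 ± 0.12) and SESN3 (1.09 ± 0.10 and 1.58 ± 0.10). SESN2 rose further to 3.48 ± 0.11 in HS+REC scramble and 4.37 ± 0.12 in HS+REC siLonp1, and its interactions were 0.84 ± 0.16 with HS (FDR = 0.00537) and 0.89 ± 0.15 with HS+REC (FDR = 0.00374). TXNIP went the other way in recovery, lower in HS+REC than in HS by 1.11 in scramble and 1.29 in siLonp1 (SE 0.07 each). Its interaction with HS+REC was −0.45 ± 0.10 (FDR = 0.0141). SESN2 was lower with siLonp1 in Ctrl (−1.02 ± 0.12, FDR = 3.95e-07), and its siLonp1 values were −0.18 ± 0.10 in HS (FDR = 0.116) and −0.14 ± 0.09 in HS+REC (FDR = 0.223). TXN, thioredoxin, did not pass for heat in either arm, with values between −0.11 and 0.08. With siLonp1, 2 of the 13 were higher and 5 lower in Ctrl, beside 49.2% of all genes, 4 higher and 3 lower in HS, beside 54.8%, and 2 higher and 3 lower in HS+REC, beside 54.1%. GLRX, glutaredoxin, was higher by 0.51 ± 0.08, 0.55 ± 0.08 and 0.46 ± 0.08 in the 3 conditions, and PRDX5, a peroxiredoxin, by 0.51 ± 0.08 in HS. Mitochondrial thioredoxin reductase TXNRD2 fell by 0.49, 0.51 and 0.60 in the 3 conditions, where TXNRD1 did not pass with TMM factors and all 18 libraries.

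Of 6 genes that supply NADPH, 0 rose and 1 fell with HS in each arm, beside the same 36.0% and 42.2%, and with siLonp1 1 was higher and 1 lower in Ctrl, 0 and 1 in HS, and 1 and 1 in HS+REC, beside 49.2%, 54.8% and 54.1%. The gene that fell with HS was IDH1 in scramble (−0.29 ± 0.07, FDR = 0.00196) and PGD in siLonp1 (−0.15 ± 0.05, FDR = 0.0328), both dehydrogenases that make NADPH. With siLonp1 the gene that fell was TKT, transketolase, by 0.29, 0.36 and 0.43 in the 3 conditions. Those that rose with siLonp1 were PGD in Ctrl (0.15 ± 0.05, FDR = 0.0244) and IDH1 in HS+REC (0.19 ± 0.07, FDR = 0.0243). Of 9 genes of haem and iron other than HMOX1, 0 rose and 3 fell in HS scramble, beside 36.0%, and 1 rose and 2 fell in HS siLonp1, beside 42.2%, shares of the list that were below those of all genes. With siLonp1 3 of the 9 were higher and 1 lower in each condition, beside 49.2%, 54.8% and 54.1%. TFRC, the transferrin receptor, fell by 0.60 and 0.55 with HS and by 0.77 and 0.96 with HS+REC. The ferritin light chain FTL fell with siLonp1 by 0.60, 0.44 and 0.54 (SE 0.07 each) in the 3 conditions, whereas BLVRA, which reduces the biliverdin that HMOX1 makes, was higher by 0.40 ± 0.08, 0.43 ± 0.08 and 0.38 ± 0.08. Of SOD1, SOD2 and CAT, which encode superoxide dismutases and catalase, 1 rose and 0 fell with HS in scramble, beside 36.0% of all genes, and 1 rose and 1 fell in siLonp1, beside 42.2%. With HS+REC 1 rose in scramble, beside 42.3%, and 2 rose in siLonp1, beside 51.2%, with 0 that fell. SOD1 rose with HS by 0.21 ± 0.06 and 0.39 ± 0.06 and with HS+REC by 0.53 ± 0.06 and 0.67 ± 0.06. In siLonp1 SOD2 fell with HS by 0.16 (SE 0.05, FDR = 0.0198) and CAT rose with HS+REC by 0.16 ± 0.06 (FDR = 0.0371). With siLonp1 1 of the 3 fell in each condition, beside 49.2%, 54.8% and 54.1%, SOD1 by 0.24 in Ctrl and SOD2 by 0.17 in HS and 0.15 in HS+REC.

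Since SLC7A11 and CHAC1 answer to ATF4 too, 12 other genes known as ATF4 targets, ATF4 included, were set beside them. NUPR1 was left out of this list. With HS 5 rose and 3 fell in scramble, beside 36.0% of all genes, and 6 rose and 2 fell in siLonp1, beside 42.2%. With HS+REC 7 rose in scramble, beside 42.3%, and 10 in siLonp1, beside 51.2%, with 0 that fell. Medians for HS+REC were 0.61 and 0.90 on the log2 scale, against −0.0028 and −0.0033 over all genes. DDIT4 (3.92 ± 0.16 and 4.73 ± 0.17) and ATF3 (1.93 ± 0.18 and 2.57 ± 0.18) led with HS. The study counts ATF3 among the HSF1 target genes that it measured by qRT-PCR, and which factor raised it here was not tested. With siLonp1 the list had 4 higher and 4 lower in Ctrl, beside 49.2% of all genes, and 8 higher and 1 lower in both HS and HS+REC, beside 54.8% and 54.1%. ASNS, asparagine synthetase, was higher by 0.92 ± 0.12, 1.39 ± 0.12 and 1.05 ± 0.12. ATF4 mRNA itself had an interaction of 0.48 ± 0.07 with HS (FDR = 0.000907), and was lower with siLonp1 in Ctrl (−0.23 ± 0.05, FDR = 0.000658) and higher in HS (0.24 ± 0.05, FDR = 0.000411). It was the 1 gene of the list past that interaction, beside 1.87% of all genes. For HS+REC 3 passed, beside 1.58%: CEBPB (0.87 ± 0.22, FDR = 0.0486), VLDLR (0.67 ± 0.16, FDR = 0.0262) and TRIB3 (0.50 ± 0.10, FDR = 0.00872).

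**Figure D4:**
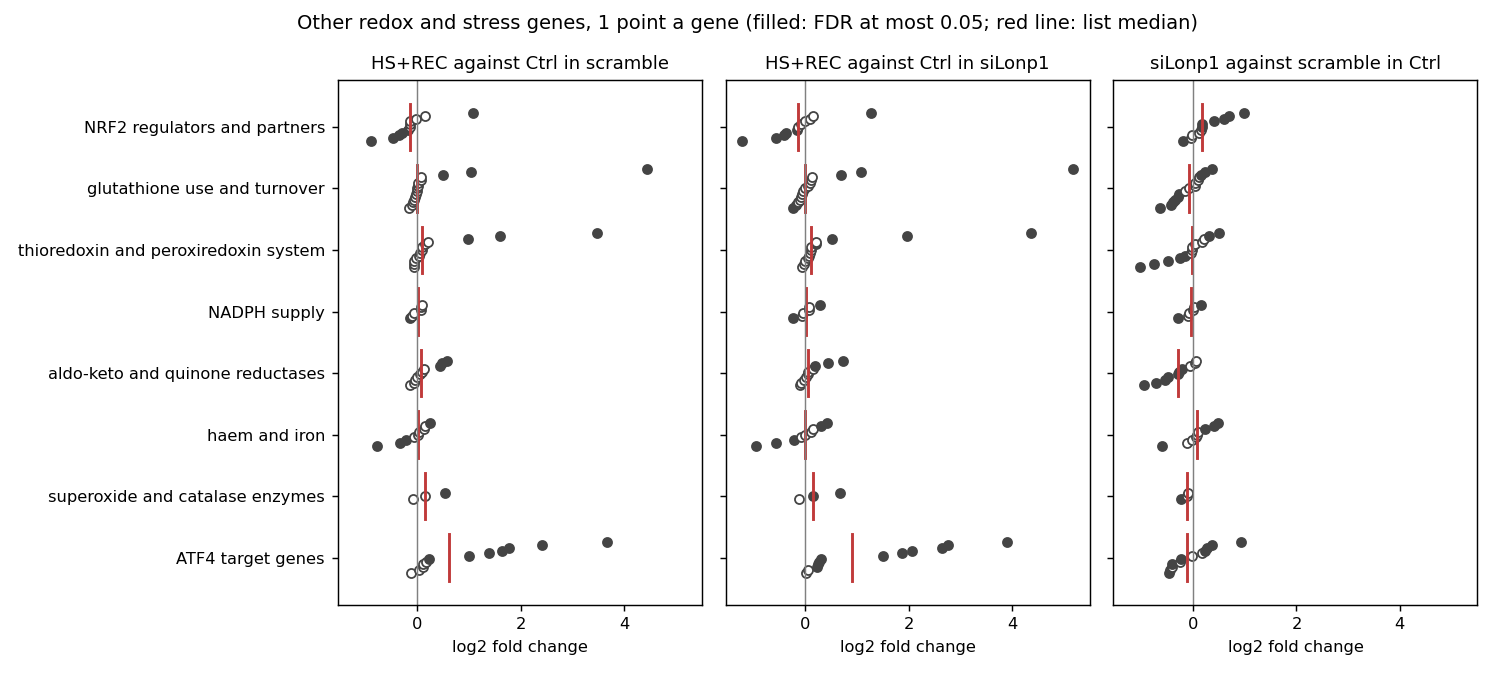
Log2 fold changes (x axis) of the other tested genes by list, 1 point a gene, for HS+REC against Ctrl in each arm and for siLonp1 against scramble in Ctrl, with filled points for an FDR of at most 0.05 and a red line at the list median. CHAC1 is the rightmost gene of glutathione use, at 4.45 and 5.18 with HS+REC. In the list labelled aldo-keto and quinone reductases, which also holds other detoxification enzymes, 7 of 10 genes fell in the last panel, where the list median is −0.28.

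HMOX1 was the only member past 2-fold, and the genes with the pattern most like it were sought among the 12832 tested. Likeness was the root mean square difference of 6 group means of log2 CPM, each centred on its gene. The nearest were RPL13AP20, a ribosomal protein pseudogene with group means under 3 CPM (0.105), VWA7 (0.114) and PMAIP1, which encodes a pro-apoptotic BH3 protein (0.127). PMAIP1 was at 20.3 ± 0.839 CPM in Ctrl scramble, 32.5 ± 2.11 in Ctrl siLonp1, 41.4 ± 4.59 and 56.5 ± 4.09 in HS, and 53.6 ± 5.89 and 71.5 ± 5.80 in HS+REC, scramble before siLonp1.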

How the data were processed

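RNAseq libraries of SW620 cells were stranded, and per the labels and the methods the authors aligned reads to hg38 with STAR 2.7.3a and counted them per gene symbol with featureCounts. The deposited values are raw counts, with no normalization. The strand setting of the counting and the removal of duplicates are not given in the sources used here. Columns were mapped to samples by their titles.

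The 9 genes, the lists, tests and alternatives were chosen with earlier results of these data known. The filter asked for a CPM above 1 in 3 or more libraries and left 12832 genes. The quasi-likelihood test of edgeR 4.0.16 (R 4.3.3) was run with TMM factors in 1 model of 6 groups and 18 libraries, for 11 contrasts, and a Benjamini-Hochberg FDR of 0.05 or less counted as a call. SE was taken from the F statistic. CPM in the text are TMM-scaled. P-values and SE rest on a spread between libraries estimated over all 6 groups together, with information shared across genes. They do not measure the spread of the compared groups alone. By the chi-square among replicates, that spread was lowest in Ctrl and highest in HS+REC. The shared estimate can therefore make SE too small for HS+REC and too large for Ctrl.

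Named genes were the 9, LONP1 and, of each list and contrast, at most 4 genes past the FDR with the largest change, with KEAP1, ATF4 and TXN added, and the 3 genes nearest to a member over 2-fold. BACH2, GSTM3, AKR1B10 and CBR3 (at most 9 counts a library) were not tested. Loci and transcript lengths were taken from GENCODE v44, promoters from RefSeq. Alternatives were RLE factors, library sizes alone, no filter, CPM above 1 in all 18 libraries, DESeq2 1.42.0, a block for the replicate number, fits of only the compared groups, FDR 0.01, a 2-fold limit and each library left out. The test was also run on simulated data with 200 genes changed by at least 2-fold in HS siLonp1, the outcome of which is not given here. That run does not bear on smaller changes, such as most of those of the 9 genes.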

Additional observations from a re-analysis of the deposited data

How the results depend on the processing

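Of 1395 refitted log2 fold changes of the 9 genes, 1314 kept their direction and their side of the threshold, 29 lost a call, 26 gained one and 26 turned sign, of which 0 were past the threshold in either fit. With the fit kept and only the limit made stricter (FDR 0.01, or over 2-fold), 48 of 198 values lost a call. The cause was not tested. A fold change over 2 left 1 gene (HMOX1) for HS in scramble and for HS+REC against Ctrl in each arm, and 0 in the other comparisons. At FDR 0.01, HS+REC against Ctrl in scramble had 3 genes. For siLonp1 in Ctrl, the same 6 genes passed with library size only and with only the groups compared. Without a filter 1 gene (SLC7A11) passed the interaction of siLonp1 with HS+REC. With each library left out, the count for HS in scramble ran from 4 to 6 and that for the interaction with HS+REC from 0 to 1. No paired analysis entered the results, since in no comparison did the deviations of all 3 same-numbered pairs correlate above 0.1. With the replicate number as a block (replicate block) the counts were 7, 6, 5, 8, 4, 5, 3, 3, 5, 0 and 0 in the order of the text, the same genes as without it.

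Values that turned sign were all small. For SRXN1 with siLonp1 in Ctrl they were −0.0084 (RLE), −0.073 (library size only), −0.0010 (CPM above 1 in all libraries), −0.0084 (DESeq2) and −0.014 (only the groups compared), with −0.049 to 0.043 over left-out libraries. With library size only they were −0.062 for NQO1 in HS+REC against Ctrl in siLonp1, −0.0047 for NQO1 in HS+REC against HS in scramble, −0.0010 for NFE2L2 in HS+REC against HS in siLonp1 and −0.021 for TXNRD1 with siLonp1 in HS+REC. Without a filter they were −0.00023 for NQO1 in HS+REC against Ctrl in siLonp1 and 0.0018 for GCLM with siLonp1 in HS. Over left-out libraries the other values that turned sign ranged from −0.16 to 0.14 for SLC7A11 and −0.016 to 0.055 for NQO1 in HS+REC against Ctrl, in scramble and siLonp1 respectively. For HS+REC against HS they ranged from −0.092 to 0.026 for GCLC and −0.17 to 0.020 for OSGIN1 in scramble, and from −0.013 to 0.050 for NFE2L2 in siLonp1. For GCLM with siLonp1 in HS+REC the range was −0.11 to 0.069, and for the interaction with HS+REC it was −0.099 to 0.036 for GCLC and −0.048 to 0.14 for OSGIN1.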
